A study of Mus musculus with 1073 samples.

Results

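The 7 genes described here are the core-binding factor genes Runx1, Runx2, Runx3 and Cbfb, the ETO gene Runx1t1, and the paired repressor genes Gfi1 and Gfi1b. They were chosen by name, and all 7 were present among the 15967 genes of the filtered tables. Single cells were sorted from mouse yolk sacs and profiled by full-length RNA-seq on a microfluidic chip, which gives each cell a library of its own. Of 1073 captured cells, 926 passed the filter of the authors, in 13 sorted populations.

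Mesoderm came from Flk1-GFP heterozygous embryos, as GFP+ cells at E7.25 (73 and 74 cells in 2 sequencing lanes) and E7.75 (53 and 87 cells in 2 lanes). The other populations came from C57BL/6 embryos. Haematopoietic progenitor cells (HPC) were TER119-CDH5+CD41+ at E8.25 (73 cells) and E8.5 (89 cells), and TER119-CDH5-CD45+CD41low at E9.5 (46 cells) and E10.5 (87 cells). The HPC gate therefore changed between E8.5 and E9.5. Primitive erythroid cells (EryP) were TER119+CDH5-CD41- at E8.5 (66 cells) and also CD45- at E10.5, where only 3 cells passed the filter. Megakaryocytes (Mk) were TER119-CDH5-CD41+ at E8.5 (37 cells) and CD45-CD41high at E10.5 (73 cells). Macrophages (Mac) were TER119-CDH5-CD41-CD45+ at E10.5 (25 cells), and endothelial cells (Endo) were TER119-CD41-CDH5+ at E8.5 (79 cells) and also CD45- at E10.5 (61 cells). Yolk sacs were pooled and no embryo is named for a cell, so each population is 1 sample and no test between populations was made. Cells of E7.25, E8.25 and E8.5 were run on 1 flow cell and cells of E7.75, E9.5 and E10.5 on another. E7.75 against E7.25, and either E9.5 or E10.5 against E8.5, therefore cannot be told apart from the flow cell. Each population other than mesoderm was run in 1 lane, and those of E8.25 and E8.5 in different lanes. Differences among the populations of E8.25 and E8.5 therefore cannot be told apart from the lane. The paper pooled a limited number of cells per lane. With 92 captured cells, E10.5 HPC cannot have shared a lane with E10.5 Endo (80), Mk (83), Mac (41) or E9.5 HPC (58). Differences of E10.5 HPC from each of these cannot be told apart from the lane either.

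RUNX proteins bind DNA through their runt domain as heterodimers with CBFB, which has no DNA contact of its own and strengthens the binding. RUNX1 is required for blood cells to emerge from haemogenic endothelium and is known for its part in definitive, but less in primitive, haematopoiesis. RUNX1T1, also called ETO, is a corepressor best known from its fusion to RUNX1 in leukaemia. GFI1 and GFI1B are SNAG-domain zinc finger repressors that recruit KDM1A and RCOR1, and they silence endothelial genes as haemogenic cells become blood. GFI1B is the member known from erythroid cells and megakaryocytes, and GFI1 from granulocytes, lymphoid cells and stem cells.

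On GRCm38, Runx1 (ENSMUSG00000022952) lies at chr16:92601466-92826149 on the minus strand, Runx2 (ENSMUSG00000039153) at chr17:44495987-44814797 on the minus strand and Runx3 (ENSMUSG00000070691) at chr4:135120652-135177990 on the plus strand. Cbfb (ENSMUSG00000031885) lies at chr8:105170674-105217989 and Runx1t1 (ENSMUSG00000006586) at chr4:13743436-13893649, both on the plus strand. Gfi1 (ENSMUSG00000029275) lies at chr5:107716657-107726036 and Gfi1b (ENSMUSG00000026815) at chr2:28609450-28621982, both on the minus strand. Genomic windows around annotated starts were found in RefSeq (GRCm38.p6) for 6 of the 7 members. The 3 RUNX genes shared a sequence at their distal start. The following 30 bases are shown because a pair of RUNX motifs is common to all 3 genes; the capitals mark each ACCACA, the reverse complement of TGTGGT.
Runx1, chr16:92826025-92826054, minus strand: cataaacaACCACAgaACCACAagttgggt
Runx2, chr17:44814583-44814612, minus strand: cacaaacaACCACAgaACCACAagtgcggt
Runx3, chr4:135120503-135120532, plus strand: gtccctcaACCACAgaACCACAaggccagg
The pair starts 28 bases after the annotated start in Runx1 and 23 bases after it in Runx2, and before the start in Runx3. The pair was noticed in these windows and then searched on both strands, and its exact letters, TGTGGTTCTGTGGT, were found in 4 of 32851 windows of 300 bases (0.0122%), of which the fourth overlaps the Runx3 window on the opposite strand. The lone motif TGTGGT was found in 16.8% of the windows.

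The 250 bases before the start of Gfi1b are shown because the GATA factor gene Gata1 was at rank 5 by Pearson correlation among the genes whose levels across populations were like those of Gfi1b, a rank that fell to 49 by Spearman correlation and to 22 without E10.5 EryP; the capitals mark the GATA motif TGATAA.
Gfi1b, chr2:28621983-28622232, minus strand: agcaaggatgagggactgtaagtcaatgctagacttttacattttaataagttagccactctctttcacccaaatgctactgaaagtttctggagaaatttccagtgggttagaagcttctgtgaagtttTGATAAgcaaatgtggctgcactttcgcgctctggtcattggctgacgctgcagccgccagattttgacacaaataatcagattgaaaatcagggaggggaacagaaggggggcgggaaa
TGATAA, which begins 120 bases before the start, was found on either strand in 7.94% of all windows of 250 bases before a start. The other GATA form searched, AGATAA, had no match in the Gfi1b window, against 9.99% of all windows before a start. Nor did the RUNX motif TGTGGT or the GFI motif AATCAC, which were searched there too. A match is a description of the letters and not a bound site.

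The Mk, Mac, Endo and EryP populations carried the markers of their names, and the mesoderm and HPC populations did so in part. At least 50% of the cells had each of 6 megakaryocyte markers in both Mk populations, each of 5 macrophage markers in Mac, each of 7 endothelial markers in both Endo populations and each of 6 primitive erythroid markers in both EryP populations. Of 6 mesoderm markers, all were at that share at E7.25 and 3 at E7.75. Of 4 progenitor markers, 3 were at that share in E8.25 and E8.5 HPC and 4 in E9.5 and E10.5 HPC. All 7 endothelial markers were also at that share in E8.25 and E8.5 HPC, against 3 in E9.5 and 2 in E10.5 HPC; their part in the values below was not tested. E8.5 Mk also had 5 of the 6 primitive erythroid markers in at least 50% of cells, at a median summed level of 25201 against 104599 CPM in E8.5 EryP and 21.1 CPM in E10.5 Mk; its part in the values below was not tested. Among the markers, Ptprc (CD45), Itga2b (CD41) and Cdh5 encode proteins of the sort gates, so their presence is no independent check of the names. The HPC gate took in CD45 only from E9.5 on. The CPM values are those of the authors, scaled by 1 size factor per cell. Total counts per cell ran from 483830 to 5943204 with a median of 1887348. A cell is said to have a gene at 1 count or more, and intervals on shares are exact 95% binomial (Clopper-Pearson) intervals that cover counting error only, since reads without molecular identifiers are not independent molecules. Where no cell had a gene, the limit given is the share that 3 cells would make, the most that a count of 0 was taken to allow.

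**Figure D1:**
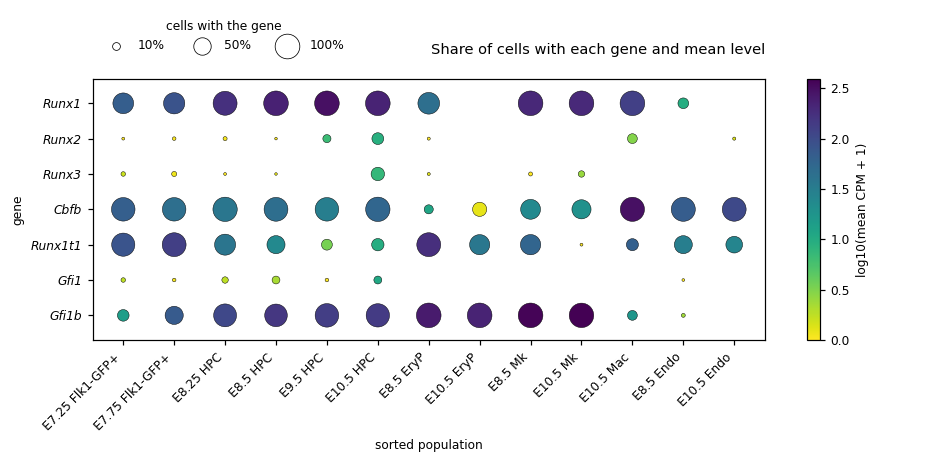
Each circle gives 1 of the 7 genes (rows) in 1 of the 13 sorted populations (columns). Its area is the share of cells with the gene and its colour the log10 of the mean CPM plus 1. Runx1 was present in every blood population other than E10.5 EryP, Gfi1b was largest in EryP and Mk, and Gfi1, Runx2 and Runx3 stayed small throughout.

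Runx1 was already present in most mesoderm cells at E7.25, reached all HPC and Mk cells from E8.5, and was scarce or missing in endothelium. At E7.25, 70.7% of Flk1-GFP+ cells (62.7 to 78.0%) had Runx1, with a median of 12.8 CPM, a highest cell of 600.2 CPM and a mean of 66.9 ± 111.2 CPM (SD over cells). At E7.75, 74.3% of 140 cells (66.2 to 81.3%) had Runx1, with a median of 11.2 CPM, a highest cell of 1498.5 CPM and a mean of 85.0 ± 167.4 CPM. In both stages the lower quartile was at 0 and the mean stood far above the median, so a share of the cells held no Runx1 while others held much. With 10 counts required, the shares were 54.4% and 54.3%.

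The lanes of each mesoderm stage differed. At E7.25, 79.5% of the 73 cells in 1 lane and 62.2% of the 74 cells in the other had Runx1, at means of 91.2 and 42.8 CPM. At E7.75, the shares in the 2 lanes were 66.0% (53 cells) and 79.3% (87 cells), at means of 65.1 and 97 CPM. The lanes of E7.25 were thus further apart than the stages, which differed 1.27-fold on the log2(mean CPM + 1) scale.

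In HPCs, 69 of 73 cells at E8.25 (94.5%, 86.6 to 98.5%) had Runx1, at a median of 135.8 CPM and a mean of 170.8 ± 152.1 CPM. From E8.5 on, every HPC had Runx1. The means were 228.8 ± 153.5 CPM (lowest 6.46, median 204.0, highest 768.3) at E8.5, 310.6 ± 223.2 CPM (lowest 7.45, median 222.7, highest 792.8) at E9.5 and 220.9 ± 131.8 CPM (lowest 0.268, median 194.8, highest 662.6) at E10.5. The cells of the 4 HPC stages overlapped widely, and no step from 1 HPC stage to the next was past 2-fold for Runx1. All cells also had Runx1 in E8.5 Mk, at a mean of 199.8 ± 138.1 CPM (lowest 19.6, median 167.6, highest 702.1), and in E10.5 Mk, at a mean of 198.7 ± 200.2 CPM (lowest 7.18, median 160.1, highest 1459.0). The 2 Mk stages were thus at 1.01-fold of each other. In E10.5 Mac, all 25 cells had Runx1, from 4.84 CPM in the lowest cell through a median of 51.2 CPM to 591.3 CPM in the highest, and the highest 5 cells held 67.0% of the summed level.

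Primitive erythroid cells kept less. At E8.5, 51 of 66 EryP (77.3%, 65.3 to 86.7%) had Runx1, with a median of 18.7 CPM, a highest cell of 267.0 CPM and a mean of 44.8 ± 57.0 CPM. At E10.5, none of the 3 EryP cells had a Runx1 read, and so few cells set no useful limit on the share. Endothelium had the least Runx1. At E8.5, 15 of 79 Endo (19.0%, 11.0 to 29.4%) had it, at a mean of 8.64 ± 30.5 CPM, with 204.4 CPM in the highest cell and 81.2% of the summed level in the top 5 cells. Among the E8.5 Endo, Runx1 was found in 5 of 8 cells with the embryonic globin Hbb-bh1 and in 10 of 71 cells without it, and with 10 counts required of both genes in 2 of 4 and 8 of 75. At E10.5, 0 of 61 Endo had Runx1, which allows a share of up to 4.92%. Ordered by mean level, the populations ran from E9.5 HPC through E8.5 HPC, E10.5 HPC, E8.5 Mk, E10.5 Mk, E8.25 HPC, E10.5 Mac, E7.75 and E7.25 Flk1-GFP+ and E8.5 EryP to E8.5 Endo, with E10.5 EryP and E10.5 Endo at 0. The interquartile ranges over cells overlapped between all neighbours in that order except E8.5 EryP and E8.5 Endo. Over all 41 captured Mac, on counts scaled by the cell total, mean Runx1 was 222.8 CPM. The 16 Mac not kept by the filter stood at 360.9 CPM. On the same basis E8.5 HPC stood at 226.8, E8.25 HPC at 192.6 and E10.5 Mk at 166.7 CPM. The place of Mac in the order thus depended on the cells and the scaling used.

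**Figure D2:**
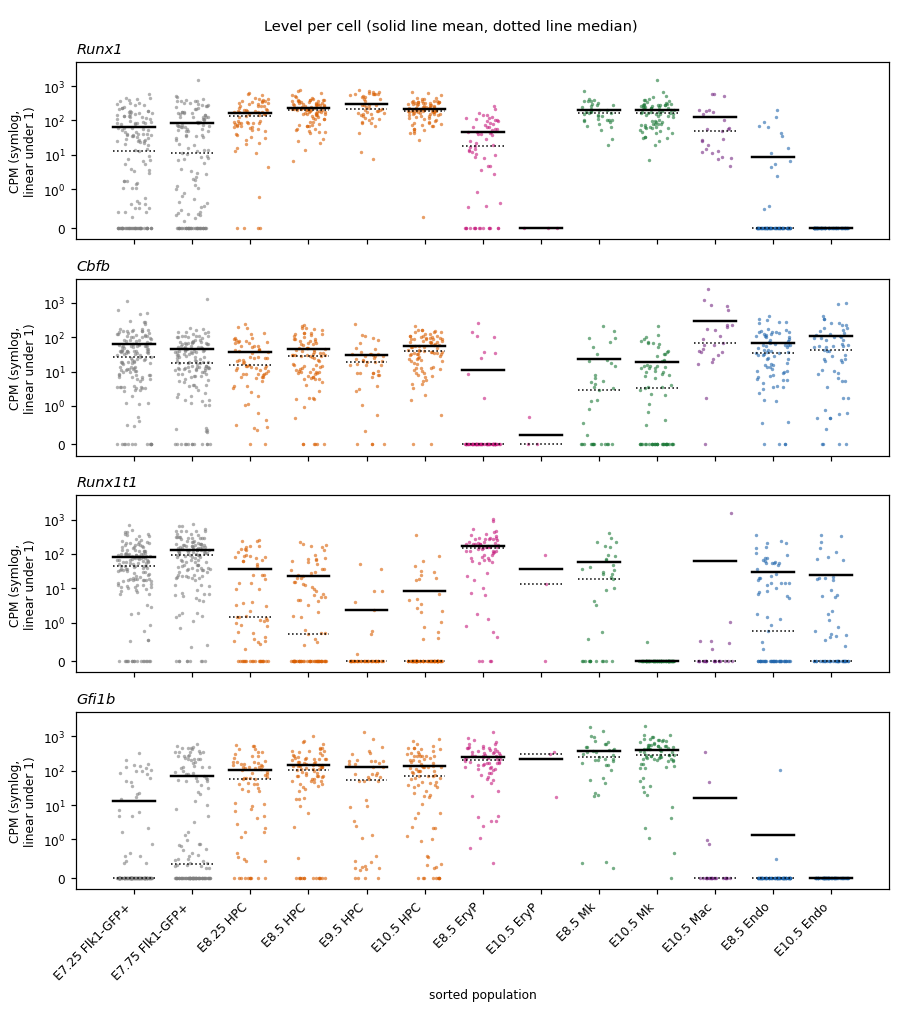
Each point is 1 cell, at its CPM of Runx1, Cbfb, Runx1t1 or Gfi1b on a symmetric log axis that is linear under 1, by sorted population; solid lines are means and dotted lines medians. Runx1 and Gfi1b were at 0 in all 61 E10.5 Endo, 57 of 66 E8.5 EryP were at 0 for Cbfb, and Runx1t1 was at 0 in 72 of 73 E10.5 Mk.

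Within the mesoderm, mean Runx1 was higher in cells with most of the listed blood and endothelial regulators and lower in cells with most of the mesoderm markers. At E7.25, cells with Tal1, a haematopoietic transcription factor gene, had Runx1 in 69 of 86 cells at a mean of 102.6 CPM, against 35 of 61 cells and 16.5 CPM without Tal1. At E7.75, the values were 72 of 86 cells and 132.4 CPM with Tal1, against 32 of 54 cells and 9.41 CPM without. The intervals of the E7.75 shares were 74.2 to 90.8% with and 45.0 to 72.4% without Tal1. These cover counting error over the cells of 1 sample and are no test. By lane, the share intervals overlapped in both E7.25 lanes and in 1 E7.75 lane (53.7 to 85.4% against 30.8 to 78.5%). They did not overlap in the other E7.75 lane. The means were apart in the same direction in each lane of each stage. At E7.25 the means were 129.3 against 13.4 CPM in 1 lane and 67.2 against 18.4 CPM in the other, and at E7.75 they were 91.8 against 13.2 CPM and 160.3 against 7.5 CPM.

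The gene for LMO2, the bridging partner of TAL1, split the cells in the same way, at 97.1 against 11.7 CPM at E7.25 and, by share, in 77 of 92 cells against 27 of 48 at E7.75. The GATA factor gene Gata2 gave 80.4 against 12.0 CPM and 108.3 against 24.6 CPM, and the ETS factor gene Fli1 78.5 against 10.2 CPM and 94.2 against 7.85 CPM. Etv2, the ETS factor gene that starts the haemato-endothelial programme, did not split them at E7.25 (68.9 against 62.4 CPM), and at E7.75 Runx1 was lower in cells with Etv2 (64.8 against 119.1 CPM). Meis1 went with lower Runx1 at both stages, at 48.6 against 85.4 CPM and 47.6 against 131.9 CPM. Ldb1, which encodes the cofactor that LMO2 binds, went with higher Runx1 at E7.25 (77.9 against 21.8 CPM) and with lower Runx1 at E7.75 (69.2 against 179.5 CPM). By share, Gata2 was in the opposite order in 1 lane of E7.75, with Runx1 in 63.2% of cells with it and 73.3% of those without.

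Of the mesoderm markers, Mesp1, a gene of nascent mesoderm, went with 39.2 CPM of Runx1 at E7.25, against 140.8 CPM in the 40 cells without it. Pdgfra, a receptor gene of paraxial and extra-embryonic mesoderm, went with 48.3 against 133.7 CPM at E7.25. At E7.75, 28 of the 29 cells without Pdgfra had Runx1, at 221.4 CPM, against 68.5% of cells and 49.3 CPM with it. T, the brachyury gene of the primitive streak, was the exception at E7.25, with 79.3 CPM in cells with T and 23.9 CPM in those without, and went the other way at E7.75 (53.2 against 97.2 CPM). Cells of a pool share their source, so these splits are descriptions.

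Genes of the haematopoietic fate were added as partners after the values were seen. At E7.25, the 45 cells with Gata1, the erythroid and megakaryocytic GATA factor gene, had Runx1 at 147.2 CPM against 31.4 CPM in the others. At E7.75, the 50 cells with the erythroid factor gene Klf1 had Runx1 in 47 cells at 162.1 CPM, against 57 of 90 cells and 42.1 CPM without Klf1. The endothelial cadherin gene Cdh5 split the E7.25 cells at 166.0 against 34.7 CPM and the E7.75 cells at 151.2 against 52.5 CPM. Runx1 was thus higher in cells with the erythroid gene and in cells with the endothelial gene.

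**Figure D3:**
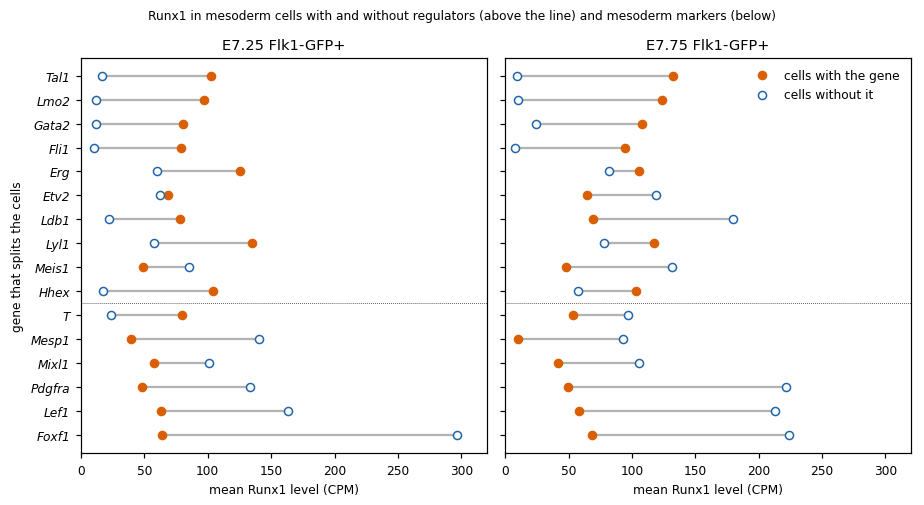
For each of 10 upstream regulators (above the dotted line) and 6 mesoderm markers (below it), filled circles give the mean Runx1 CPM in Flk1-GFP+ cells with that gene and open circles the mean in cells without it, at E7.25 (left) and E7.75 (right). For Tal1 the circles stand at 102.6 and 16.5 CPM at E7.25 and at 132.4 and 9.41 CPM at E7.75, and for Pdgfra they are in the opposite order.

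Runx2 was rare outside E9.5 HPC, E10.5 HPC and E10.5 Mac, and Runx3 was rare outside E10.5 HPC. Runx2, the osteoblast factor gene of the family, was found in 1.12 to 2.74% of the mesoderm cells and of the HPC up to E8.5, then in 5 of 46 E9.5 HPC (10.9%, 3.62 to 23.6%) and 20 of 87 E10.5 HPC (23.0%, 14.6 to 33.2%). Its mean was 5.76 CPM at E9.5 and 8.08 CPM at E10.5, with 152.8 CPM in the highest E10.5 cell. In E10.5 Mac, 4 of 25 cells (16.0%, 4.54 to 36.1%) had it, at a mean of 2.04 CPM. None of the 37 and 73 Mk cells of E8.5 and E10.5 had a Runx2 read, which allows shares of up to 8.11% and 4.11%.

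Runx3, the member known from T cells and neurons, was found in 26 of 87 E10.5 HPC (29.9%, 20.5 to 40.6%), at a mean of 6.31 ± 19.1 CPM and a highest cell of 108.3 CPM. In E9.5 HPC it was found in 0 of 46 cells, which allows up to 6.52%. E10.5 Mk followed with 5 of 73 cells (6.85%, 2.26 to 15.3%), and no other population exceeded 4.29%. The E10.5 HPCs with Runx3 were mostly those with Gata1. Runx3 was found in 23 of 55 cells with Gata1 (41.8%, 28.7 to 55.9%) and in 3 of 32 without it (9.38%, 1.98 to 25.0%), at means of 9.37 and 1.04 CPM. On counts thinned to 800000 per cell, the same split was 18 of 45 against 3 of 29. For Runx2 the split ran the other way without clear separation, at 10 of 55 cells with Gata1 and 10 of 32 without it. Of the 87 E10.5 HPCs, 7 had reads of all 3 RUNX genes, 32 of Runx1 and 1 other, and 48 of Runx1 alone, and Runx1 had the highest CPM in 85. Per kb of exon, Runx1 stood at 18.4 CPM in these cells, against 0.914 for Runx2 and 1.26 for Runx3.

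Cbfb was common in every population but the erythroid and megakaryocytic ones. It was found in 90.7 to 97.7% of cells in the mesoderm, HPC, Mac and Endo populations, at means between 30.0 CPM (E9.5 HPC) and 304.9 ± 565.6 CPM (E10.5 Mac, median 65.8, highest 2575.1). The 5 highest of the 25 Mac held 79% of their summed Cbfb. Over all 41 captured Mac, on counts scaled by the cell total, the mean was 165.2 CPM. In E8.5 Mk, 24 of 37 cells (64.9%, 47.5 to 79.8%) had Cbfb, at a median of 2.94 CPM and a mean of 22.8 ± 47.3 CPM. In E10.5 Mk, 44 of 73 cells (60.3%, 48.1 to 71.5%) had it, at a median of 3.38 CPM and a mean of 18.6 ± 35.3 CPM. In E8.5 EryP only 9 of 66 cells (13.6%, 6.43 to 24.3%) had Cbfb, at a mean of 10.8 ± 39.7 CPM, and in E10.5 EryP 1 of 3 cells had 1 count.

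The share of all cells with both Runx1 and Cbfb therefore differed widely between populations. Both genes were found in 83 of 89 E8.5 HPC (93.3%, 85.9 to 97.5%), 24 of 37 E8.5 Mk and 8 of 66 E8.5 EryP (12.1%, 5.38 to 22.5%), while 43 of the 66 EryP had Runx1 with no Cbfb read. The median total was 2099063 counts per cell in E8.5 EryP and 1555237 in E8.5 HPC; the part of depth in the Cbfb shares was not tested. In E8.5 Endo the other order held, with Cbfb and no Runx1 in 61 of 79 cells. Per kb of exon, E8.5 HPC had Runx1 at 19.0 CPM and Cbfb at 13.2 CPM, E8.5 EryP had 3.73 and 3.11 CPM, and E10.5 Mk had 16.5 and 5.33 CPM.

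Runx1t1 was highest in mesoderm and primitive erythroid cells and was nearly missing from E10.5 megakaryocytes. It was found in 88.4% of mesoderm cells at E7.25 (82.1 to 93.1%), at a median of 44.9 CPM and a mean of 83.1 ± 110.8 CPM, and in 93.6% at E7.75 (88.1 to 97%), at a median of 90.1 CPM and a mean of 128.4 ± 146.6 CPM. In E8.5 EryP, 62 of 66 cells (93.9%, 85.2 to 98.3%) had it, at a median of 147.8 CPM and a mean of 175.2 ± 187.9 CPM, the highest of the 13 populations. Of the 3 E10.5 EryP cells, 2 had it, at 13.5 and 93.1 CPM.

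In HPCs, the share with Runx1t1 went from 72.6% at E8.25 (60.9 to 82.4%, mean 37.2 CPM) to 53.9% at E8.5 (43.0 to 64.6%, mean 22.5 CPM), 19.6% at E9.5 (9.36 to 33.9%, mean 2.42 CPM) and 25.3% at E10.5 (16.6 to 35.7%, mean 8.41 CPM). In megakaryocytes it went from 25 of 37 cells at E8.5 (67.6%, 50.2 to 82.0%, mean 56.4 CPM) to 1 of 73 cells at E10.5 (1.37%, 0.0347 to 7.40%), which had 1 count. The ratio of the Mk means was 8282, with a counting interval over reads from 1486 to 327154, and rested on that 1 count. On the log2(mean CPM + 1) scale the difference was 57-fold. The 5 highest of the 37 E8.5 Mk held 62.3% of their summed Runx1t1. The E8.5 Mk also carried the erythroid markers given above, and Runx1t1 was at its highest in E8.5 EryP; whether these are connected was not tested. In Endo the shares were 53.2% at E8.5 and 45.9% at E10.5, at means of 30.2 and 24.8 CPM. The mean of 63.3 CPM in E10.5 Mac came from 1 cell at 1578.7 CPM, and 19 of the 25 Mac had no read.

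Gfi1b was far more common than Gfi1 in the yolk sac. It was found in 22.4% of mesoderm cells at E7.25 (16.0 to 30.1%), at a mean of 13.3 ± 42.2 CPM, and in 76 of 140 at E7.75 (54.3%, 45.7 to 62.7%), at a mean of 70.8 ± 133.7 CPM, 5.03-fold higher on the log2(mean CPM + 1) scale. The E7.75 lanes had 64.2% and 48.3% of cells with Gfi1b, both above the 21.9% and 23.0% of the E7.25 lanes. All 3 primitive erythroid markers in that comparison (Alas2, Hbb-bh1 and Klf1) were also higher at E7.75; their part in the Gfi1b difference was not tested. All HPC stages had Gfi1b in most cells, with 86.3, 84.3, 91.3 and 89.7% in order of stage, at a median of 57.8 CPM at E8.25 and means of 150.4, 131.3 and 139.7 CPM at the later stages.

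All 66 E8.5 EryP had Gfi1b, from 0.389 CPM in the lowest cell through a median of 207.0 CPM to 1335.3 CPM in the highest, at a mean of 256.3 ± 240.0 CPM. The 3 E10.5 EryP cells had 17.0, 302.7 and 348.5 CPM. The highest means were those of megakaryocytes, at 370.9 ± 402.8 CPM in E8.5 Mk (37 of 37 cells) and 392.8 ± 334.4 CPM in E10.5 Mk (72 of 73 cells). Gfi1b was rare elsewhere, with 4 of 25 Mac (16.0%, 4.54 to 36.1%), 2 of 79 E8.5 Endo (2.53%, 0.308 to 8.85%) and 0 of 61 E10.5 Endo, which allows up to 4.92%. Ordered by mean, the interquartile ranges of Gfi1b overlapped between every pair of neighbouring populations.

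In the mesoderm, Gfi1b reads lay almost all in cells with Tal1. The mean was 22.7 CPM in E7.25 cells with Tal1 and 0.0655 CPM in those without, and 115.2 against 0.146 CPM at E7.75. Gata1 gave a like split, at 40.9 against 1.09 CPM at E7.25 and 110.7 against 1.30 CPM at E7.75. Gfi1b was found in 28.8% of the E7.25 cells with Runx1 (18.8 CPM) and in 3 of 43 without it (0.0336 CPM), and in 62.5% of the E7.75 cells with Runx1 (94.4 CPM) and 11 of 36 without it (2.64 CPM). Among HPCs with and without Gata1, mean Gfi1b was 181.0 against 44.5 CPM at E8.5 and 188.6 against 55.6 CPM at E10.5.

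Gfi1 was found in 33 of the 926 cells, of which 13 had 10 counts or more. Mesoderm held 8 of them (5 from E7.25 and 3 from E7.75), and there were 5 in E8.25 HPC, 9 of 89 in E8.5 HPC (10.1%, 4.73 to 18.3%), 1 in E9.5 HPC, 9 of 87 in E10.5 HPC (10.3%, 4.84 to 18.7%) and 1 in E8.5 Endo. No cell of the EryP, Mk, Mac or E10.5 Endo populations had it, which allows up to 4.55% in E8.5 EryP, 8.11% in E8.5 Mk, 4.11% in E10.5 Mk and 12.0% in E10.5 Mac. The highest cell was an E10.5 HPC with 1141 counts (701.6 CPM), without which no E10.5 HPC was above 97.7 CPM.

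The HPCs with Gfi1 also had Gfi1b at E8.5 and E10.5, and mostly lacked it at E8.25. Over all cells, Gfi1b was found in 86.3% of E8.25, 84.3% of E8.5 and 89.7% of E10.5 HPC. Finding both genes together at E8.5 and E10.5 was thus near what these shares give for any HPC. All 9 E8.5 HPCs with Gfi1 also had Gfi1b, at 50.6 to 580.7 CPM, and Gfi1 had more counts than Gfi1b in 1 of them (52 against 47). Such counts are not corrected for exon length, which is 3.19 kb for Gfi1 and 1.83 kb for Gfi1b. Per kb, Gfi1b was the higher in that cell. All 9 E10.5 HPCs with Gfi1 had Gfi1b too, and in 4 of them Gfi1 had more counts than Gfi1b. Of the 5 E8.25 HPCs with Gfi1, 4 had no Gfi1b and no Gata1 read and had Runx1 at 175.7 to 443.8 CPM. The other had 1 Gfi1 count beside 265 of Gfi1b, and no Runx1 read. With so few cells, the HPC stages cannot be ordered by this.

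Per kb of exon, Gfi1b was above Gfi1 in every population in which either exceeded 3 summed counts. The ratio of mean CPM per kb was 28.3 (counting interval 24.9 to 32.3) in E7.25 cells and 1348 (912.9 to 2084) in E7.75 cells, and 232.2 (193.0 to 282.0) in E8.25 HPC, 221.6 (187.9 to 263.2) in E8.5 HPC and 24.4 (23.1 to 25.7) in E10.5 HPC. These ratios rested on few cells, since the 1 cell with most Gfi1 counts held 65.5% of them in the E7.25 cells, 92% in the E7.75 cells, 84.1% in E8.25 HPC, 43% in E8.5 HPC and 77.3% in E10.5 HPC. Without that cell, a check chosen after the data were seen, the ratio was 115.98 (93.8 to 145.1) in the E7.25 cells, 11314 (3132 to 93427) in the E7.75 cells, 1342 (848.9 to 2265) in E8.25 HPC, 327.7 (263.5 to 412.8) in E8.5 HPC and 125.3 (112.4 to 139.9) in E10.5 HPC. Gfi1b thus stayed above Gfi1, but the size and the order of the ratios changed with single cells. In E9.5 HPC, with 1 Gfi1 count, the interval ran from 5635 to 1240386. Gfi1 had no read in E8.5 EryP and in both Mk populations. Against a floor of 3 counts over the population, Gfi1b per kb was 16823-fold higher in E8.5 EryP. In E8.5 and E10.5 Mk it was 26398-fold and 20266-fold higher. This floor counts reads, and a single cell with Gfi1 held up to 1141 of them. These folds are therefore no lower limits on the difference.

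**Figure D4:**
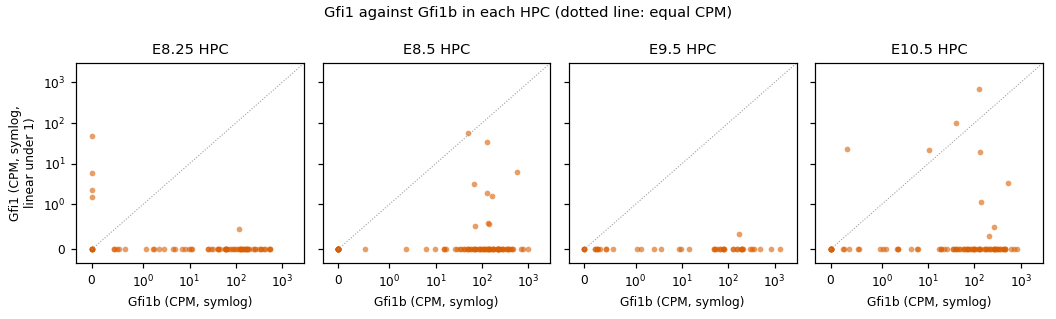
Each point is 1 HPC, at its Gfi1b CPM (horizontal) and Gfi1 CPM (vertical) on symmetric log axes that are linear under 1, with 1 panel per stage; the dotted line marks equal CPM. Most cells lie on the floor of 0 Gfi1, the E8.25 cells with Gfi1 stand at 0 Gfi1b except 1, and the E10.5 cells reach 701.6 CPM of Gfi1.

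Populations were then compared across all genes, where a gene counts as called at 2-fold or more on log2(mean CPM + 1), among genes at a mean of 10 CPM or more and in at least 10% of the cells of either population. Runx2, Runx3 and Gfi1 passed this filter in no comparison, so at most 4 members were in it. Gfi1 missed it narrowly in E10.5 HPC, at a mean of 9.99 CPM in 10.3% of cells, most of it from the 1 cell named above. On counts scaled by the cell total it passed and was called in 5 comparisons, all of E10.5 HPC, at log2 differences of 3.83 against E9.5 HPC, 2.66 against E8.5 HPC and 3.84 each against E10.5 Endo, Mk and Mac, where its groups of comparison had a mean of at most 1.18 CPM. From E7.25 to E7.75, 10.3% of 8877 genes were called in either direction, and 1 of 4 members was, Gfi1b at a log2 difference of 2.33. Runx1 (0.34), Runx1t1 (0.62) and Cbfb (-0.54) were not. From E8.25 to E8.5 HPC, 6.6% of genes and 0 of 4 members were called. From E8.5 to E9.5 HPC, 24.4% of genes and 1 of 4 members were called, Runx1t1 at -2.78. All 4 primitive erythroid markers in that comparison were lower too, and their part in it was not tested. From E9.5 to E10.5 HPC, 14.4% of genes and 0 of 3 members were called, with Cbfb at 0.86; on counts scaled by the cell total Cbfb reached 1.29, past the fold.

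Within lineages from E8.5 to E10.5, 20.9% of genes and 1 of 4 members were called in HPC (Runx1t1 at -1.32), 28.8% and 1 of 4 in Mk (Runx1t1), and 36.8% and 0 of 2 in Endo. Runx1 was at -0.05 in HPC and -0.01 in Mk, and Gfi1b at -0.11 and 0.08. On counts scaled by the cell total the HPC values of both genes changed sign, to 0.07 and 0.06. Between lineages at E8.5, 28.2% of genes and 2 of 4 members were called for HPC against Endo, Runx1 (4.58) and Gfi1b (6.02), both higher in HPC. For HPC against Mk, 17.4% of genes and 2 of 4 members were called, Runx1t1 (-1.29) and Gfi1b (-1.30), both lower in HPC. Cbfb was higher in HPC at 0.98, and on counts scaled by the cell total it reached 1.07, past the fold.

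For E8.5 HPC against E8.5 EryP, 26.6% of genes and 3 of 4 members were called, Runx1 (2.33) and Cbfb (1.98) higher in HPC and Runx1t1 (-2.90) lower. For E8.5 Mk against E8.5 EryP, 22.4% of genes and 3 of 4 members were called, Runx1 at 2.13, Cbfb at 1.01 and Runx1t1 at -1.62. Of these, Cbfb was close to the fold. At E10.5, 50.3% of genes and 3 of 4 members were called for HPC against Endo, with Runx1t1 at -1.46. Runx1 and Gfi1b had no read in Endo. In HPC they were 5314-fold and 3359-fold above a floor of 3 counts over the Endo cells. That floor counts reads, so these folds are no lower limits. For HPC against Mk, 26.4% of genes and 2 of 3 members were called, Cbfb (1.53) higher and Gfi1b (-1.49) lower in HPC. For HPC against Mac, 46.7% of genes and 3 of 4 members were called, Gfi1b at 3.06 and Cbfb and Runx1t1 at -2.44 and -2.77. The last rested on the 1 Mac cell named above, and for Cbfb the medians were 38.9 CPM in HPC and 65.8 CPM in Mac. With shares of this size called among all genes, a call of a member says little that is particular to it.

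The surrounding pathway genes were read in the same comparisons, by lists set with earlier results known. From E7.25 to E7.75, 0 of the 8 Runx1 upstream regulators in the comparison were called (median log2 difference 0.07, against 0.04 over all genes), with Tal1 at 43.7 against 42.6 CPM and Gata2 at 68.6 against 84.7 CPM. Of the Runx1 haematopoietic targets, 4 of 5 were called, against 10.3% of all genes, and the 4 were higher at E7.75 (median 1.85): the adhesion receptor gene Adgrg1 from 0.245 to 22.3 CPM, Itga2b (CD41) from 0.977 to 11.2 CPM, the progenitor factor gene Myb from 5.21 to 21.4 CPM and the ETO relative Cbfa2t3 from 14.5 to 41.9 CPM. All 3 primitive erythroid and all 3 progenitor markers in that comparison were higher at E7.75, and 3 of 6 mesoderm markers (T, Mesp1 and Mixl1) lower. Myb and Adgrg1 are in both the progenitor and the target list. The part of these markers in the target list was not tested. Of the GFI corepressor genes, 0 of 7 were called (median -0.02), with the demethylase gene Kdm1a at 114.2 against 124.8 CPM.

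From E8.5 to E9.5 HPC, 7 of 10 target genes were higher and 1 lower (median 1.51, against -0.03 over all genes, of which 24.4% were called). Mpo, the granule peroxidase gene, went from 15.1 to 294.8 CPM, the receptor gene Csf1r from 15.8 to 83.1 CPM and Myb from 39.9 to 179.3 CPM. Ptprc, the gene of CD45, went from 14.4 to 240.1 CPM, and Itga2b, the 1 that was lower, from 92.4 to 42.0 CPM; the E9.5 gate was CD45+ and CD41low, so that these cannot be told apart from the change of gate. All 3 macrophage and both granulocyte markers in the comparison were higher at E9.5, and all 4 megakaryocyte and all 4 primitive erythroid markers lower. Csf1r, Mpo and Itga2b are both among these markers and in the target list. The part of these markers in the target list was not tested. Of 7 endothelial genes in the comparison, 5 were lower and none higher (median -2.04), among them Cdh5 (124.3 to 5.35 CPM), where the gate went from CDH5+ to CDH5-. Gfi1b and Kdm1a, at log2 differences of -0.19 and -0.33, were not called.

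For E8.5 HPC against E8.5 EryP, 5 of 9 upstream regulators were higher in HPC and none lower (median 4.13, or 4.71 with genes at 0 set to their bound, against -0.05 over all genes). Fli1 was at 477.4 against 4.15 CPM, Hhex at 113.4 against 2.28 CPM and Gata2 at 52.0 against 1.02 CPM, while Tal1 and Lmo2, at log2 differences of -0.69 and 0.68, were not called. Of the targets, 7 of 9 were higher in HPC and 1, Ikzf1, lower; Itga2b was 1 of the 7, and the HPC were sorted as CD41+ and the EryP as CD41-. For E10.5 HPC against E10.5 Mk, 2 of 9 upstream regulators were higher and 3 lower in HPC, with Tal1 at 34.9 against 217.1 CPM and Gata2 at 153.9 against 44.6 CPM. For E10.5 against E8.5 Mk, 0 of 8 GFI corepressor genes (median 0.14) and 0 of 4 ETO family and corepressor genes (median 0.22, against -0.06 over all genes) were called, although Runx1t1 itself was.

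The genes whose 13 population means were closest to those of Runx1 by Pearson correlation of log2(mean CPM + 1), among 12324 genes at 10 CPM or more in a population, were Bri3bp (0.96), Rcc2 (0.96) and Entpd6 (0.94). For Gfi1b they were Bag2 (0.96), the erythroid and megakaryocytic factor gene Nfe2 (0.93) and Xrcc6 (0.93), with Gata1 at rank 5 (0.91), or at rank 49 by Spearman correlation and 22 without E10.5 EryP. Gfi1 did not reach 10 CPM in any population and was not compared. These are descriptions over 13 points that differ in depth, flow cell and number of cells.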

How the data were processed

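Reads were aligned to GRCm38 and counted per gene by the authors with Subread and featureCounts (Ensembl 84); tool versions are not given in the sources used here. The deposited counts are whole numbers per gene and cell, for all 1073 captured cells and for the 926 that passed the filter of the authors. The deposited CPM table is a signal scaled by the authors with scran size factors, 1 factor per cell, so columns have different sums.

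Shares, levels, ratios, co-detection and fold differences were computed with Python 3.11.15, pandas 2.3.3, numpy 2.4.6 and scipy 1.17.1, and figures with matplotlib 3.10.9. Lengths are union exons of GENCODE M21 (GRCm38). The procedures were tested on simulated data. Alternatives on counts and cells were a minimum of 10 counts, thinning to 800000 counts per cell (40 cells left out), each sequencing lane and all captured cells. Those on levels were scaling by the cell total, medians, trimming the highest 5% of cells, 4-fold, no filter and a pseudocount of 10 CPM. Those on correlations were Spearman correlation and leaving out E10.5 EryP. Partner genes Gata1, Klf1, Cdh5, Myb, Gfi1b, Cbfb and Runx1t1 the splits within HPC, Endo, EryP and Mk, and the ratio without the cell with most Gfi1 counts were added after the data were seen. Members and lists were chosen with earlier results of these data known. Named genes were the members, the 3 nearest genes by pattern for Runx1, Gfi1 and Gfi1b, and genes of the lists; Gata1 was added to the nearest genes of Gfi1b after its value was seen. Protein sequences were not used here.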

Additional observations from a re-analysis of the deposited data

Results flagged for a closer look

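The authors' filter left 22 of the 25 captured E10.5 EryP cells out, and some of these held members. Total counts in the 22 cells ran from 27656 to 3606368 with a median of 701329. Runx1 had reads in 4 of the 22 cells (18.2%), against 0 of the 3 cells that passed. Cbfb had reads in 4 cells (18.2%), Runx1t1 in 7 (31.8%) and Gfi1b in 4 (18.2%). E10.5 EryP shared a lane with E10.5 Mac, of which all 25 that passed the filter and 40 of the 41 captured had Runx1; its part in these reads was not tested.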

How the results depend on the processing

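The called differences kept their direction when scaled by the cell total, and were not checked for it under medians or trimming. Runx1t1 in E10.5 HPC against Mac rested on 1 Mac cell, with a median of 0 CPM in both populations. By share, the Tal1 and Pdgfra splits kept their direction under every alternative, but not every smaller split did. Of 32 differences in the share with Runx1 between cells with and without a listed gene, 10 changed sign under at least 1 alternative, 7 of them at 10 counts or more, where Ldb1 at E7.25 went from 6.52 to -9.42 points. Scaled by the cell total, Runx1 and Gfi1b from E8.5 to E10.5 HPC, neither of them called, went from -0.05 to 0.07 and from -0.11 to 0.06 on the log2 scale. With 10 counts or more required, shares with Runx1 were 54.4% at E7.25, 54.3% at E7.75 and 65.2% in E8.5 EryP. Those with Gfi1 were 3.37% in E8.5 HPC and 0% in E9.5 HPC and E8.5 Endo. Those with Gfi1b were 14.3% at E7.25, 35.7% at E7.75, 68.5%, 58.7% and 75.9% in E8.25, E9.5 and E10.5 HPC, 89.4% in E8.5 EryP and 91.8% in E10.5 Mk. Cells with both Gfi1 and Gfi1b were 0%, 3.37%, 0% and 4.6% of E8.25, E8.5, E9.5 and E10.5 HPC. The difference in the share with Runx1 between cells with and without Tal1 was 48.6 points at E7.25 and 54.6 at E7.75.

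Thinned to 800000 counts per cell, Runx1 at E7.75 was at 62.1%, Gfi1 at 0% in E9.5 HPC and E8.5 Endo, Gfi1b at 43.5% at E7.75 and at 71.1% and 81.1% in E9.5 and E10.5 HPC, both GFI genes at 0% in E8.25 and E9.5 HPC, and the Tal1 difference at E7.25 was 39.5 points. By lane, Runx1 was at 79.5% in lane 6 and 62.2% in lane 7 at E7.25. In lane 7 at E7.75, Runx1 was at 66%, Gfi1 at 0% and Gfi1b at 64.2%, and the Pdgfra difference was -42.9 points. Over all captured cells, E8.5 EryP had Runx1 in 63.1%, Gfi1b in 91.7% and Runx1t1 in 82.1%, and E10.5 EryP had Gfi1b in 28%. In E8.5 Mk, Runx1t1 was then in 49.1% and Cbfb in 47.2% of 53 cells. The 16 E8.5 Mk not kept by the filter had a median total of 77501.5 counts.

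Without the length correction, Gfi1b over Gfi1 was 16.3 at E7.25, 774.1 at E7.75, and 133.4, 127.2 and 14 in E8.25, E8.5 and E10.5 HPC. Against the floor of 3 counts it was 9660, 394.5, 15158, 11637 and 245.9 in E8.5 and E10.5 EryP, E8.5 and E10.5 Mk and E10.5 Mac. Without the cell with most Gfi1 counts, it was 115.98 at E7.25, 11314 at E7.75 and 1342, 327.7 and 125.3 in E8.25, E8.5 and E10.5 HPC. Against that floor it was then 6431 in E9.5 HPC and 105.1 in E8.5 Endo. Scaled by the cell total it was 20.5 in E10.5 HPC and, against that floor, 693.9 in Mac. With no filter on low values, 3 members were past the fold from E8.5 to E9.5 HPC, 3 from E9.5 to E10.5 HPC, 4 from E8.5 to E10.5 in HPC, 2 in Mk and 2 in Endo, and 6 each for E10.5 HPC against Endo, Mk and Mac. Scaled by the cell total, 2 members were past it from E9.5 and from E8.5 to E10.5 HPC. At 4-fold, 0 were from E8.5 to E10.5 HPC and for HPC against Mk at E8.5 and at E10.5, and 1 was for E8.5 Mk against EryP. With a pseudocount of 10 CPM, 0 were from E8.5 to E10.5 HPC. By Spearman correlation, 0 of the 3 genes nearest to Runx1 and 1 of the 3 nearest to Gfi1b were still among the nearest 3. Without E10.5 EryP these numbers were 3 and 1. The cause of each change was not tested beyond what the setting itself changes.

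Over all genes, 585 to 5109 were past the fold per comparison, 1676 to 7362 with no filter and 176 to 3893 with a pseudocount of 10 CPM. Scaling by the cell total moved the share of higher calls from 40.5 to 55.2% from E9.5 to E10.5 HPC, from 42.9 to 54.3% from E8.5 to E10.5 HPC, from 67.9 to 80.2% for E8.5 HPC against EryP, from 62.4 to 73.1% for E8.5 Mk against EryP, and from 40.8 to 53.1%, 44.6 to 60.7% and 52.3 to 62.7% for E10.5 HPC against Endo, Mk and Mac. It moved the median log2 difference of all genes by 0.16 to 0.34 in 6 of 14 comparisons. No paired analysis was possible because no embryo or pool is named per cell and no result comes from a test. Each population is 1 sample, so no spread between embryos is known, and shares of a low gene depend on depth.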
